A study of Mus musculus with 14 samples.

Results

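The 10 integrin subunits followed here are 7 alpha chains (*Itga2b*, *Itga4*, *Itga5*, *Itga6*, *Itga9*, *Itgav* and *Itgal*) and 3 beta chains (*Itgb1*, *Itgb2* and *Itgb3*). They were taken by gene symbol, and all 10 were found among 19322 genes of the E10 and 19424 genes of the E11 single-cell table. The measurements were made by CEL-Seq, which counts the 3′ end of each mRNA with a unique molecular identifier, in mouse embryos at E10 (28 to 32 somite pairs) and E11 (over 40 somite pairs). The study followed endothelial cells of the aorta as they become haematopoietic cells in intra-aortic haematopoietic clusters (IAHCs), in sorted single cells and in whole clusters (wIAHCs).

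The 3 populations of the aorta-gonad-mesonephros region (AGM) gated on reporter alleles came from ICR embryos labelled Gfi+/tomato/ Gfi1b+/GFP, the genotype that the methods give for the fathers, mated to wild-type ICR females. All were Cdh5+ and Gfi1b-. Non-haemogenic endothelial (non-HE) cells lacked Gfi1 and c-kit, haemogenic endothelial (HE) cells carried Gfi1 without c-kit, and cells in the endothelial-to-haematopoietic transition (EHT) carried both. IAHC cells (c-kit+ CD31+ at both stages, with a second E11 sample sorted as c-kit+ alone), yolk sac haematopoietic stem and progenitor cells (YS HSPCs, c-kit+), E11 pre-HSCs (c-kit+ Cdh5+, type I CD45- and type II CD45+) and wIAHCs (c-kit+) came from wild-type C57BL/6 embryos. Strain, reporter alleles and gate therefore cannot be told apart wherever EHT cells are set beside IAHC cells. None of the 10 subunits was used in a gate. The methods state pooling of AGMs for the sorting of IAHC cells. The names of the sorted populations are those of gates, not of lineages traced. IAHC cells were further selected by the study in silico, by *Gpr56* transcripts and few transcripts of non-IAHC genes. *Gpr56* was seen in 100% of the deposited IAHC cells of each sample.

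The single-cell tables held 546 E10 cells (43 non-HE, 98 HE, 191 EHT, 73 IAHC and 141 YS HSPCs) and 575 E11 cells (30 non-HE, 46 HE, 46 EHT, 62 type I and 55 type II pre-HSCs, 201 c-kit+CD31+ and 89 c-kit+ IAHC cells and 46 YS HSPCs). The E10 non-HE columns are named early E11 in the table, and the label, E10, was followed. Every E10 cell had been brought to 3000 transcripts and every E11 cell to 5000, so levels of both stages are set side by side only after thinning E11 cells to 3000. The summed level of 12 endothelial markers was 36.6 transcripts per cell in E10 non-HE, 29.5 in HE, 8.98 in EHT, 6.27 in IAHC cells and 1.099 in YS HSPCs, while that of 10 haematopoietic markers was 0.698, 2.90, 9.87, 13.5 and 10.7. At E11 endothelial markers came to 47.5 in non-HE, 55.6 in HE and 19.26 in EHT, and haematopoietic ones to between 13.8 and 18.5 from EHT on. Markers of other cells were seen as well. Mesenchymal ones were seen in 60.7% of c-kit+CD31+ and 75.3% of c-kit+ IAHC cells of E11. They were also seen in 65.1% of E10 and 70% of E11 non-HE cells and 63.0% of E11 HE cells. Their level was 0.673 per cell in HE and 0.115 in EHT at E10, and 1.85 and 0.457 at E11. The part of mesenchymal cells in subunit levels lower in EHT than HE was not tested. Erythroid markers were at 3.52 per cell in type I pre-HSCs and 5.48 in E11 YS HSPCs. Of 7 macrophage markers, at least 4 were seen together in 2 E11 EHT cells and 1 E10 HE cell. The labels give 1 sample per population and stage, so single-cell populations were compared without a test. Intervals are 95% intervals for counting error only, exact Poisson for a level, exact Clopper-Pearson for a share of cells and exact conditional binomial for a ratio.

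Integrins are cell surface receptors built of an alpha and a beta chain, which bind matrix proteins or counter-receptors on other cells outside and talin, kindlin and the actin cytoskeleton inside. The beta1 chain (*Itgb1*) pairs with many alpha chains. Alpha4 (*Itga4*) and alpha9 (*Itga9*) with beta1 bind VCAM1 and forms of fibronectin, alpha5 (*Itga5*) with beta1 is the classical fibronectin receptor, and alpha6 (*Itga6*) binds laminins. Alpha v (*Itgav*) pairs with beta1 and beta3 among others, and alpha IIb (*Itga2b*, CD41) pairs with beta3 (*Itgb3*, CD61) in the fibrinogen receptor of platelets and marks early haematopoietic progenitors of the embryo. Alpha L (*Itgal*) and beta2 (*Itgb2*) form LFA1, a leukocyte receptor for ICAM proteins. Beta1 integrins are required for haematopoietic cells to colonise the fetal liver.

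On GRCm38 the genes lie apart except that *Itga2b* (chr11:102453297-102470122, minus strand) and *Itgb3* (chr11:104608000-104670476, plus strand) share chromosome 11, and *Itga6* (chr2:71745616-71858416), *Itga4* (chr2:79255426-79333123) and *Itgav* (chr2:83724397-83806916) share the plus strand of chromosome 2. *Itgb1* lies at chr8:128685654-128733200, *Itga9* at chr9:118606690-118901003, *Itgal* at chr7:127296260-127335138 and *Itgb2* at chr10:77530252-77565708, all on the plus strand, and *Itga5* at chr15:103344286-103366763 on the minus strand. In the last 1000 bases, where CEL-Seq reads fall, *Itga4* overlaps *Cerkl* and *Itga9* overlaps the antisense gene *Gm2415*, each on the opposite strand. Whether the counting used strand is not given in the sources used here, so reads of these overlapping genes cannot be told apart with certainty.

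Promoters were available from RefSeq (GRCm38.p6, 250 bases before to 50 bases after the start of the gene) for 6 of the 10 subunits, and not matched for *Itga6*, *Itgal*, *Itgb2* and *Itgb3*. They were searched on both strands for motifs of 3 factor families that act in endothelial and blood cells. AGGAAG is a core that the ETS factors read. TGTGGT is a core of the RUNX factors. The GATA factors read motifs such as AGATAA, and in the same way the related letters TGATAA. The promoters of 3 genes with contrasting patterns are printed, with the matches in capitals: *Itgb1*, which was highest in endothelium, *Itga4*, which was higher from EHT on, and *Itga2b*, which was highest in YS HSPCs. They lie at chr8:128685404-128685703 (plus strand), chr2:79255176-79255475 (plus strand) and chr11:102469834-102470133 (minus strand).
Itgb1: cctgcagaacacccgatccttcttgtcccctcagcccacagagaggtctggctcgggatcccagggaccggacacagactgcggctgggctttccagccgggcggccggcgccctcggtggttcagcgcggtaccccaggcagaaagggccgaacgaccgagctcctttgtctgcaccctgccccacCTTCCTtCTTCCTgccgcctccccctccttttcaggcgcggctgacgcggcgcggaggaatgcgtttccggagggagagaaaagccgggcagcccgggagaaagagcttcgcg
Itga4: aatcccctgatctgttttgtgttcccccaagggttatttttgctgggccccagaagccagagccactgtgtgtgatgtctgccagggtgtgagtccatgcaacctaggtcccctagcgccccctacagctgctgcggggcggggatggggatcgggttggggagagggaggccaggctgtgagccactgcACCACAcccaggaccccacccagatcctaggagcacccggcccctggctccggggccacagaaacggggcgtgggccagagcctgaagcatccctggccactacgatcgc
Itga2b: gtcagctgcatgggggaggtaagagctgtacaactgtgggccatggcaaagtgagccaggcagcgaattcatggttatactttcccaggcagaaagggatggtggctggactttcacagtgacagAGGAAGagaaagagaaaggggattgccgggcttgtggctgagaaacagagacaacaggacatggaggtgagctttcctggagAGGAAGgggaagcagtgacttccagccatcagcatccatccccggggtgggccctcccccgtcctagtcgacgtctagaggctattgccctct
In *Itgb1* the capitals mark CTTCCT, the other strand of AGGAAG, 63 and 56 bases before the start. In *Itga4* they mark ACCACA, the other strand of TGTGGT, 60 bases before it, and in *Itga2b* they mark AGGAAG 125 and 43 bases before the start that RefSeq gives, which lies 239 bases inside that of GENCODE. AGGAAG was found in 3 of the 6 promoters (the third being *Itgav*) against 35.4% of 32851 promoters of this length, TGTGGT in 1 of 6 against 16.8%, and AGATAA and TGATAA in 0 of 6 against 11.2% and 9.05%. For *Itga9*, whose window held no match, the RefSeq start lies 105002 bases inside that of GENCODE, so this window may not be the promoter of the transcripts counted. These are matches of letters and no binding was measured here.

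The question of the single-cell comparisons is how the subunits differ along the path from endothelium to cluster. Because CEL-Seq counts 1 tag per mRNA end, a level does not scale with the length of the gene. *Itgb1* was the most abundant subunit in every population but YS HSPCs of E10, where *Itga2b* had the higher mean (0.730 against 0.553 transcripts per cell, with overlapping intervals). It was highest in endothelium and lowest in YS HSPCs at both stages. *Itga4* at both stages and *Itgb3* at E10 were instead higher in EHT than in HE cells, and *Itga2b* was low until the IAHC.

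**Figure D1:**
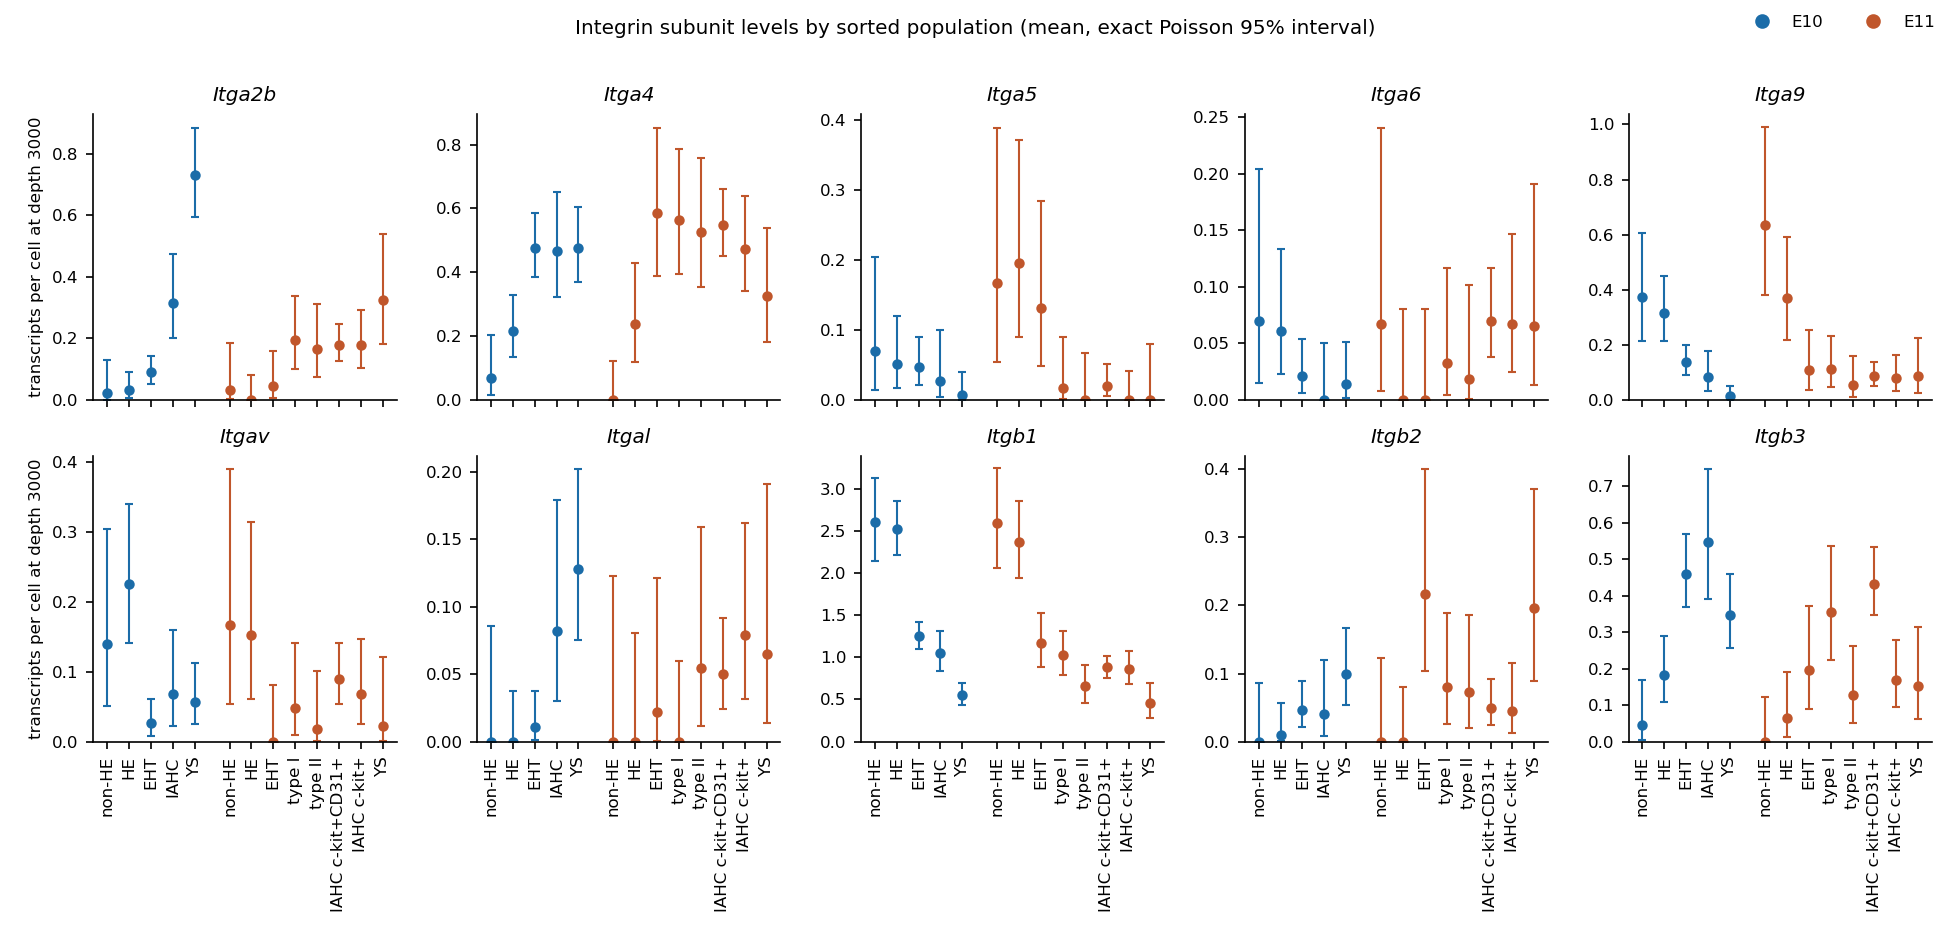
Mean transcripts per cell of the 10 subunits (vertical axis, linear and from 0, each panel on its own scale) in the sorted populations (horizontal axis), with exact Poisson 95% intervals; E10 in blue and E11 in orange, E11 cells thinned to 3000 transcripts. *Itgb1* stepped from 2.52 in E10 HE to 1.25 in EHT cells and to 0.553 in YS HSPCs, while *Itga2b* was highest in YS HSPCs, at 0.730.

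*Itgb1* at E10 stood at 2.60 transcripts per cell in non-HE (2.14 to 3.13, 43 cells), 2.52 in HE (2.22 to 2.86, 98 cells), 1.25 in EHT (1.098 to 1.4204, 191 cells), 1.05 in IAHC (0.832 to 1.32, 73 cells) and 0.553 in YS HSPCs (0.437 to 0.690, 141 cells). At E11, at the deposited depth of 5000, it stood at 4.57 in non-HE, 4.17 in HE, 2.07 in EHT, 1.81 in type I and 1.145 in type II pre-HSCs, 1.49 in c-kit+CD31+ and 1.28 in c-kit+ IAHC cells and 0.696 in YS HSPCs. At both stages non-HE and HE came first, EHT above IAHC cells, and YS HSPCs last, with type I pre-HSCs between EHT and IAHC cells and type II below the IAHC samples at E11. The log2 ratio of HE to non-HE was -0.05 (-0.38 to 0.29) at E10 and -0.13 (-0.45 to 0.20) at E11, so these neighbours did not differ beyond counting error. EHT against HE gave -1.01 (-1.27 to -0.75, 239 against 247 transcripts) at E10 and -1.02 (-1.39 to -0.65, 95 against 192) at E11. EHT cells thus held less *Itgb1* than HE cells beyond counting error at both stages. IAHC against EHT gave -0.25 (-0.64 to 0.13) at E10 and -0.47 (-0.81 to -0.12) at E11 for c-kit+CD31+ cells, and YS HSPCs against IAHC gave -0.93 (-1.40 to -0.46) and -1.10 (-1.68 to -0.57). The share of cells with an *Itgb1* transcript was 90.8% in E10 HE, 67.5% in EHT and 43.3% in YS HSPCs.

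Columns of a population are named in sets, and the E10 sets carry different stage names: both HE sets and 1 EHT set are named E10.5, and the other 2 EHT sets late E10. At E10 the 2 HE sets held 2.21 and 3.03 *Itgb1* transcripts per cell and the 3 EHT sets 1.125 to 1.287, so that HE and EHT did not overlap by set, also not with the EHT set named like HE (1.28). *Itga4* (HE 0.135 to 0.262, EHT 0.391 to 0.552), *Itgb3* (HE 0.135 to 0.213, EHT 0.368 to 0.547), *Itga9* (HE 0.279 to 0.378, EHT 0.0781 to 0.225) and *Itgav* (HE 0.108 to 0.295, EHT 0.0230 to 0.0312) did not overlap by set either. The share of all genes whose 2 HE and 3 EHT sets do not overlap was not counted. The separation is therefore a description of these sets, and whether it is particular to the subunits was not tested. E11 HE and EHT cells were 1 set each.

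**Figure D2:**
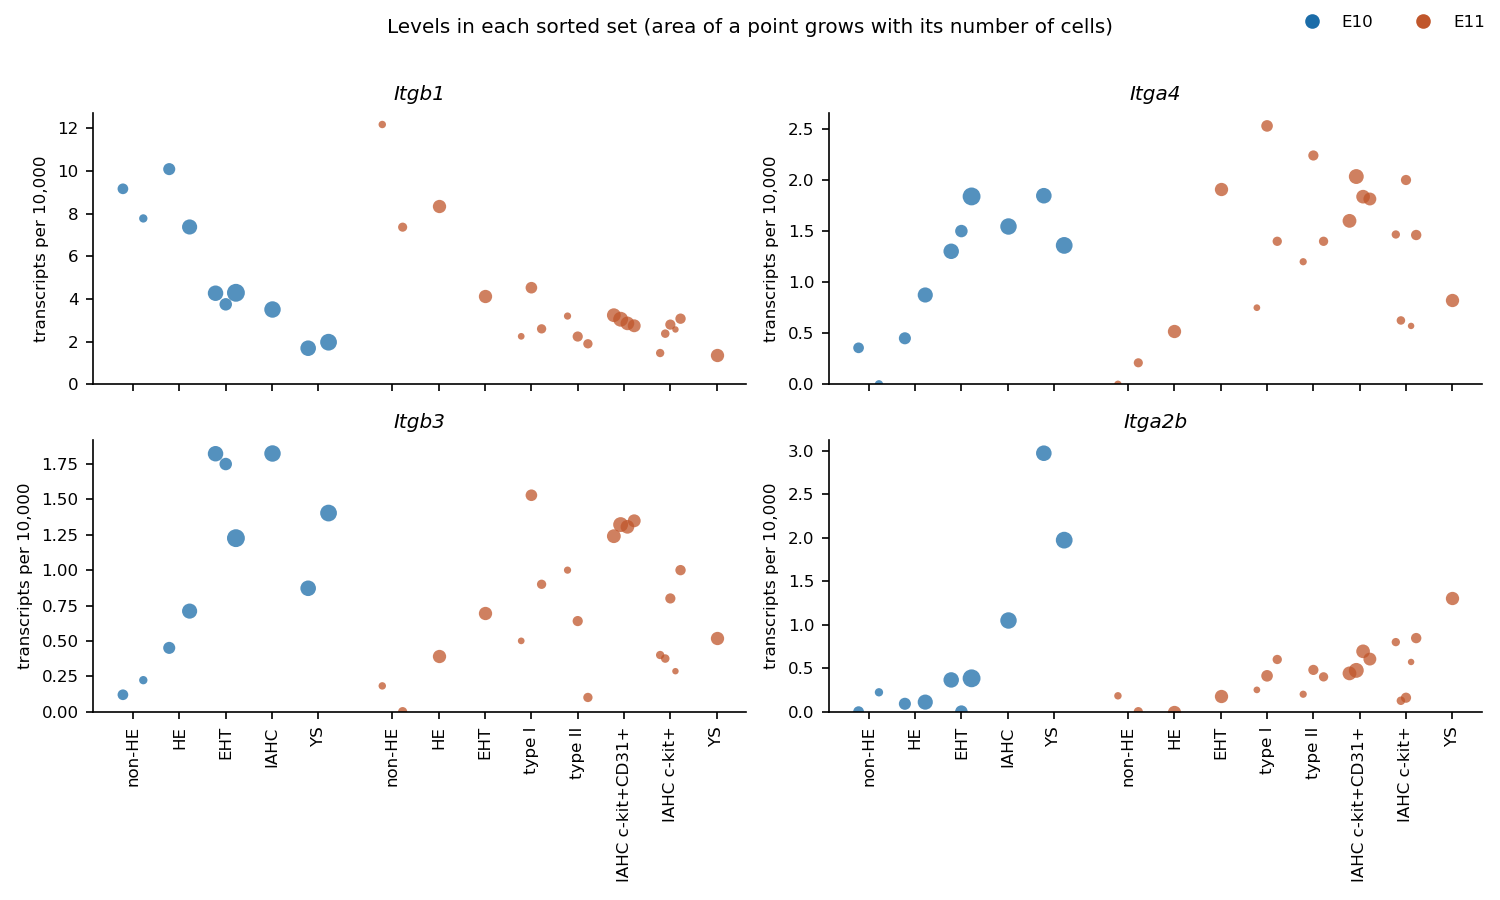
Transcripts per 10,000 of *Itgb1*, *Itga4*, *Itgb3* and *Itga2b* (vertical axis, linear and from 0) in every set of columns of each population (horizontal axis); each point is 1 set, its area grows with the number of cells, E10 is blue and E11 orange. The HE and EHT sets of E10 are apart for the first 3 genes, and the 5 small sets of E11 c-kit+ IAHC cells spread widely.

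*Itga4*, whose product makes VLA4 with beta1, was rare in non-HE and higher in EHT than in HE at both stages. At E10 it was 0.0698 per cell in non-HE (0.0144 to 0.204), 0.214 in HE (0.133 to 0.328), 0.476 in EHT (0.384 to 0.585), 0.466 in IAHC (0.323 to 0.651) and 0.475 in YS HSPCs (0.368 to 0.603). At E11 it was 0.0667 in non-HE, 0.261 in HE, 0.957 in EHT, 0.968 in type I and 0.873 in type II pre-HSCs, 0.915 in c-kit+CD31+ and 0.697 in c-kit+ IAHC cells and 0.413 in YS HSPCs. Non-HE and HE could not be separated at this depth, with log2 ratios of 1.619 (-0.12 to 4.01) and 1.97 (-0.20 to 5.17). EHT against HE was outside counting error, at 1.153 (0.46 to 1.912, 91 against 21 transcripts) at E10 and 1.87 (0.93 to 2.93, 44 against 12) at E11. The ratios of HE to non-HE were no smaller, so a difference before EHT was neither shown nor excluded. IAHC cells did not differ from EHT cells beyond counting error, at -0.03 (-0.65 to 0.55) and -0.06 (-0.54 to 0.45). YS HSPCs against IAHC cells gave 0.03 (-0.59 to 0.67) at E10, and at E11 YS HSPCs were lower, at -1.15 (-1.91 to -0.46).

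*Itgb3* was higher in EHT than in HE cells at E10, as *Itga4* was, and at E11 this was not shown beyond counting error. At E10 it was 0.0465 per cell in non-HE, 0.184 in HE, 0.461 in EHT, 0.548 in IAHC and 0.348 in YS HSPCs, and EHT against HE gave 1.33 (0.58 to 2.15, 88 against 18 transcripts). At E11 it was 0.0333 in non-HE, 0.196 in HE, 0.348 in EHT, 0.597 in type I and 0.255 in type II pre-HSCs, 0.652 in c-kit+CD31+ and 0.337 in c-kit+ IAHC cells and 0.261 in YS HSPCs. The E11 step from HE to EHT was within counting error, at 0.83 (-0.43 to 2.19), and a step from EHT to c-kit+CD31+ IAHC cells was outside it, at 0.91 (0.15 to 1.75). YS HSPCs were lower than IAHC cells at both stages, at -0.66 (-1.29 to -0.02) and -1.32 (-2.31 to -0.47). The c-kit+ sample of E11 was lower than the c-kit+CD31+ sample, at -0.95 (-1.57 to -0.37), and its 5 sets ran from 0.143 to 0.500 against 0.620 to 0.674 in the 4 sets of the other. Endothelial marker transcripts came to 7.31 per cell in the c-kit+ and 11 in the c-kit+CD31+ sample and mesenchymal ones to 1.94 and 1.199, and their part in this difference was not tested.

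*Itga2b*, the partner of *Itgb3* in platelets, did not follow it. At E10 it was 0.0233 per cell in non-HE (1 transcript), 0.0306 in HE (3 transcripts), 0.0890 in EHT (0.0518 to 0.143), 0.315 in IAHC (0.200 to 0.473) and 0.730 in YS HSPCs (0.596 to 0.886). At E11 it was 0.0333 in non-HE, 0 in HE, 0.0870 in EHT, 0.226 in type I and 0.200 in type II pre-HSCs, 0.274 and 0.247 in the 2 IAHC samples and 0.652 in YS HSPCs. The level was higher in IAHC than in EHT cells at both stages, where that of *Itga4* was not, and higher again in the yolk sac. IAHC against EHT gave 1.82 (0.86 to 2.82) at E10 and 1.65 (0.22 to 3.58) at E11, and YS HSPCs against IAHC gave 1.213 (0.55 to 1.93) and 1.25 (0.56 to 1.92). The EHT to HE ratio at E10 was 1.54 on few transcripts (-0.25 to 3.95, 17 against 3), so that a step between these cells was neither shown nor excluded at this depth. *Gp9*, a megakaryocyte gene, was at 0.0419 per cell in E10 EHT, 0.110 in IAHC and 0.184 in YS HSPCs, and *Pf4* at 0.0419, 0.0685 and 0.163. Erythroid markers were at 1.55 per cell in E10 IAHC cells and 2.21 in E10 YS HSPCs. At E11 they were at 0.249 in c-kit+CD31+ IAHC cells and 5.48 in YS HSPCs. The part of megakaryocyte-lineage or erythroid cells in the *Itga2b* level was not tested.

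*Itga9* and *Itgav* were on the endothelial side with *Itgb1*. *Itga9* was 0.372 in E10 non-HE, 0.316 in HE, 0.136 in EHT, 0.0822 in IAHC and 0.0142 in YS HSPCs, with EHT against HE at -1.22 (-2.03 to -0.42). At E11 it was 0.933, 0.609 and 0.174 in non-HE, HE and EHT, between 0.0727 and 0.177 in the pre-HSC and IAHC samples and 0.152 in YS HSPCs, and EHT against HE gave -1.81 (-3.15 to -0.64). *Itgav* was 0.140 in E10 non-HE, 0.224 in HE, 0.0262 in EHT, 0.0685 in IAHC and 0.0567 in YS HSPCs, with EHT against HE at -3.10 (-4.86 to -1.66, 5 against 22 transcripts). At E11 it was 0.233 in non-HE and 0.239 in HE, and none of the 46 EHT cells had a transcript against 11 transcripts in 46 HE cells, for an upper limit of -1.33 on the log2 ratio. Read against the floor of 3 counts, 0 of 46 cells allows a share of up to 6.52% of cells with a transcript at this depth, which is no limit on cells that express the gene. EHT cells had the lowest mean of *Itgav* at both stages, although at E10 their interval overlapped those of IAHC cells and YS HSPCs, and the E11 c-kit+CD31+ IAHC cells held 28 transcripts (0.139 per cell).

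The remaining 4 subunits were low in most populations. *Itga5* at E10 ran from 0.0698 in non-HE to 0.00709 in YS HSPCs, on 1 to 9 transcripts per population. At E11 it was 0.333 in non-HE, 0.413 in HE and 0.239 in EHT, against 0.0161 in type I pre-HSCs, 0.0348 in c-kit+CD31+ IAHC and none seen (0) in YS HSPCs, type II pre-HSCs and c-kit+ IAHC. At E11 the level in EHT cells was thus above that in IAHC cells and type I pre-HSCs, populations of another strain, and the log2 ratio of IAHC to EHT was -2.78 (-4.38 to -1.28) and that of type I pre-HSCs to EHT -3.89 (-9.32 to -1.11), on 7 and 1 transcripts against 11. *Itga6* did not pass 0.124 per cell anywhere. *Itgal* was 0 in E10 non-HE and HE, 0.0105 in EHT, 0.0822 in IAHC and 0.128 in YS HSPCs (IAHC to EHT 2.97, 0.49 to 6.31, on 6 against 2 transcripts), and at E11 was highest in YS HSPCs at 0.174. *Itgb2*, its partner, was 0.0993 in YS HSPCs of E10 and at most 0.0471 in the other E10 populations. In E11 EHT cells it reached 0.413, but 14 of the 19 transcripts came from the 2 cells with macrophage markers, and without these cells the level was 0.114 per cell.

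Among the genes with at least 20 transcripts in the pair, 10.51% of 7268 were at least 2-fold higher in E10 EHT than HE cells and 9.22% at least 2-fold lower, and at E11 8.65% of 4731 were higher and 13.93% lower. Of the 10 subunits, 6 had that many transcripts at E10, and 3 of them were higher (*Itga4*, *Itgb3* and *Itga2b*) and 3 lower (*Itgb1*, *Itga9* and *Itgav*). At E11 6 had them again, with 2 higher (*Itga4* and *Itgb2*) and 2 lower (*Itgb1* and *Itga9*). Without the 2 cells with macrophage markers *Itgb2* had under 20 transcripts in the pair and *Itgb1* was at -0.97, which left 1 higher (*Itga4*) and 1 lower (*Itga9*). At E10, leaving out 1 set brought *Itgb1* to -0.82, *Itga4* to 0.86 and *Itga9* to -0.94 at the least, each under 2-fold in the same direction, so that the counts rest on ratios close to the threshold. *Itga2b* entered on exactly 20 transcripts, with 7, 0 and 10 in the 3 EHT sets, so that without either set that held them it was under the minimum. The median log2 ratio of the measured subunits was 0.07 at E10 and 0.02 at E11, beside 0.07 and -0.07 over all genes, so that subunits lay on both sides of it.

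**Figure D3:**
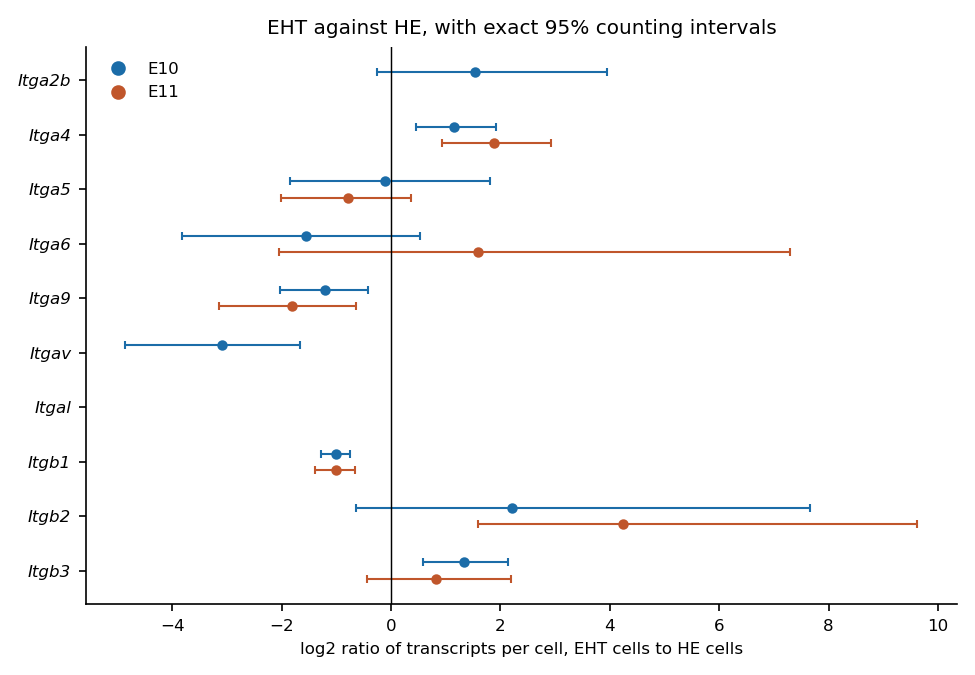
Log2 ratio of transcripts per cell in EHT cells to HE cells (horizontal axis) for each subunit (vertical axis), with exact 95% counting intervals; E10 blue, E11 orange, the line at 0 marks equal levels, and ratios with 0 transcripts on a side are not drawn. *Itga4* lies right of 0 and *Itgb1* and *Itga9* left of it at both stages.

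The proportions among the subunits also differed. All transcripts of the 10 subunits together came to 3.40 per cell in E10 non-HE, 3.61 in HE, 2.57 in EHT, 2.685 in IAHC and 2.43 in YS HSPCs. Of these, *Itgb1* made up 76.7%, 69.8%, 48.8%, 39.3% and 22.8% in the same order, *Itga4* 2.05%, 5.93%, 18.6%, 17.3% and 19.591%, and *Itga2b* 0.685%, 0.847%, 3.47%, 11.7% and 30.1%. At E11 the share of *Itgb1* was 72.5% in non-HE, 70.3% in HE, 47.3% in EHT, 44.8% in type I and 40.9% in type II pre-HSCs, 38.1% and 41.01% in the 2 IAHC samples and 26.02% in YS HSPCs. The median cell had transcripts of 2 of the 10 subunits in each population.

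Transcripts of subunits that pair as proteins were seen together in single cells to very different extents. In E10 EHT cells, *Itgb1* was seen in 40 of 63 cells with an *Itga4* transcript (63.5%) and in 89 of 128 without (69.5%), and in HE in 14 of 15 and 75 of 83. In E10 YS HSPCs it was seen in 11 of 45 cells with *Itga4* (24.4%, 12.9 to 39.5%) and in 50 of 96 without (52.1%, 41.6 to 62.4%), and in the fewer E11 YS HSPCs in 4 of 12 and 15 of 34. Among the populations named for this pair, the E10 yolk sac was the one in which the intervals of the shares with and without *Itga4* did not overlap. Several pairs were looked at over 13 populations with no allowance for their number, and this difference was not tested. *Itgb3* was seen in 16 of 61 E10 YS HSPCs with *Itga2b* (26.2%) and 18 of 80 without (22.5%), and the corresponding numbers were 8 of 16 and 23 of 57 for E10 IAHC, 20 of 48 and 67 of 153 for E11 c-kit+CD31+ IAHC, and 7 of 18 and 2 of 28 for E11 YS HSPCs. *Itgb2* was seen in 2 of 18 E10 YS HSPCs with *Itgal* and in 11 of 123 without. At so few transcripts per subunit and cell, a cell without a transcript cannot be called a cell without the subunit.

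Within the 290 E11 IAHC cells of both samples, the subunits were set beside *Cdh5*, the endothelial cadherin, and *Ptprc*, which encodes the leukocyte protein CD45. Both are cut on the presence of 1 transcript and define ranges, not cell types. *Itgb3* was 0.680 per cell in the 197 cells with a *Cdh5* transcript and 0.290 in the 93 without, a log2 ratio of 1.23 (0.62 to 1.88), and *Itgb1* was 1.59 against 1.08, at 0.57 (0.24 to 0.91). *Itga4* gave 0.49 (0.06 to 0.93) and *Itga2b*, at 0.244 against 0.312, was not apart. *Itgal* went the other way, with 0.0508 against 0.183, at -1.85 (-3.14 to -0.64). In the 47 cells with *Ptprc* and 243 without, *Itga4* was 1.17 against 0.786, at 0.57 (0.11 to 1.01), *Itga9* 0.213 against 0.0823, at 1.3702 (0.11 to 2.53), and *Itgb3* 0.362 against 0.593, at -0.71 (-1.53 to 0.02). The samples differ in *Cdh5* too, which was seen in 151 of 201 c-kit+CD31+ and 46 of 89 c-kit+ cells. Within the c-kit+CD31+ sample the *Cdh5* ratio was 1.151 (0.41 to 1.98) for *Itgb3*, 0.60 (0.05 to 1.19) for *Itga4*, 0.41 (-0.01 to 0.84) for *Itgb1* and -1.79 (-3.48 to -0.13) for *Itgal*. Within the c-kit+ sample it was 0.90 (-0.26 to 2.16), 0.09 (-0.68 to 0.86), 0.79 (0.22 to 1.38) and -1.68 (-4.20 to 0.32). For *Ptprc*, *Itga4* gave 0.48 (-0.10 to 1.02) and 0.91 (0.06 to 1.71) in these samples, and *Itga9* 1.25 (-0.41 to 2.69) and 1.66 (-0.68 to 3.87). Directions were thus the same within both samples for these genes, and each ratio was outside counting error in at most 1 of them. In 73 E10 IAHC cells *Itgb3* was at 0.556 with and 0.536 without *Cdh5*.

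Type II pre-HSCs, which carry CD45, had less *Itgb1* than type I, with a log2 ratio of -0.66 (-1.13 to -0.20), and less *Itgb3*, at -1.23 (-2.23 to -0.31), whereas *Itga4* gave -0.15 (-0.73 to 0.42). *Ptprc* itself was 0.309 per cell in type II and 0.113 in type I. Endothelial markers came to 6.78 per cell in type II and 12.1 in type I, *Cdh5* to 1.45 and 2.92, and erythroid markers to 2.44 and 3.52. Their part in the subunit ratios was not tested. By set, *Itgb3* was 0.250 in type I and 0.500 in type II cells of set 1 (8 and 10 cells), 0.765 and 0.320 in set 2 (34 and 25 cells) and 0.450 and 0.05 in set 3 (20 cells each). *Itgb1* was 1.125 and 1.6 in set 1 and 1.3 and 0.95 in set 3, and set 2 held 77 transcripts in 34 type I cells and 28 in 25 type II cells. The smallest set thus went against the other 2, and without the type I cells of set 2 the *Itgb1* ratio was -0.13. *Itgal* had 5 transcripts in type II and 0 in type I cells.

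With E11 cells thinned to 3000 transcripts, *Itgb1* hardly differed between the stages, with log2 ratios of E11 to E10 of 0.00 (-0.44 to 0.43) in non-HE, -0.09 (-0.43 to 0.24) in HE, -0.09 (-0.55 to 0.34) in EHT and -0.26 (-0.65 to 0.14) in IAHC cells. *Itga4* gave 0.30 in EHT and 0.23 in IAHC cells. *Itgb3* was lower at E11 in EHT cells, at -1.24 (-2.41 to -0.25), and in YS HSPCs, at -1.19 (-2.58 to -0.04), and *Itga2b* in YS HSPCs, at -1.16 (-2.05 to -0.38). The thinning was 1 random draw, and the intervals leave out its spread. Of the 30 *Itga2b* transcripts in E11 YS HSPCs it kept 15, where 3000 of 5000 transcripts were kept in each cell. *Itga5* was higher in HE, at 1.94 (0.21 to 3.86), on 9 against 5 transcripts. *Itga6* was higher in c-kit+CD31+ IAHC cells, with 14 transcripts in 201 E11 and 0 in 73 E10 cells (lower limit of the log2 ratio 0.27). The summed level of mesenchymal markers was 0.0959 per cell in these E10 cells (at 3000 transcripts) and 1.199 in these E11 cells (at 5000). A filter rebuilt here from the description of the study's purification passed 54 of the 73 E10 and 140 of the 201 E11 cells. The part of mesenchymal markers in the *Itga6* level was not tested. *Itgb2* was higher in EHT cells, at 2.21 (0.75 to 3.68), most of it in the 2 cells with macrophage markers at the deposited depth. The alpha IIb and beta3 chains were thus those with lower levels at E11, in the populations just named. E11 EHT cells and E11 YS HSPCs were 1 set each, and no set holds cells of both stages. Stage and set therefore cannot be told apart in these ratios. The E10 YS HSPC sets held 0.592 and 0.892 *Itga2b* transcripts per cell, against 0.326 in the thinned E11 set. For *Itgb3* they held 0.262 and 0.421, against 0.152. The non-HE ratio rests on the label E10 for columns named early E11.

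Of 16 other integrin subunits, 15 were in the tables, and only *Itgb4*, the laminin-binding partner of alpha6, reached 0.2 transcripts per cell in a population. It was at 0.279 in E10 non-HE (12 transcripts), 0.0204 in HE and 0 in EHT, and at E11 at 0.30 in non-HE, 0.435 in HE (20 transcripts) and 0.0435 in EHT (2 transcripts), a log2 ratio of EHT to HE of -3.32.

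The cytoplasmic machinery that integrins act through was followed in a list of 34 genes. At E10, 29 had 20 transcripts in the HE and EHT cells, with 3 at least 2-fold higher in EHT (10.51% of all genes were) and 6 lower (9.22% of all genes) and a median log2 ratio of -0.08, and at E11 25, with 2 higher, 7 lower and a median of -0.21. At E11 8.65% of all genes were higher and 13.93% lower, so that at both stages the number of higher machinery genes was near the background. The genes with the largest ratios are given as descriptions and stood on both sides. *Ptk2b*, the kinase PYK2, was 0.366 per cell in E10 EHT against 0.0612 in HE, at 2.58 (1.388 to 4.08), and at E11 at 2.00 (0.67 to 3.58). *Apbb1ip*, which encodes RIAM, a Rap1 effector that recruits talin, had 33 transcripts in E10 EHT and 1 in HE, at 4.08 (1.503 to 9.43), and at E11 7 and 0. *Cd47*, an integrin-associated protein, was 1.522 against 0.522 at E11, at 1.54 (0.86 to 2.28). Against these, *Parva*, the actin-binding alpha-parvin, was 0.0419 in EHT against 0.347 in HE at E10, at -3.05 (-4.37 to -1.91), and gave -3.91 (-7.02 to -1.93) at E11. *Fermt2* (kindlin-2) gave -2.27 (-3.24 to -1.36) and *Bcar1* (p130Cas) -2.06 (-3.60 to -0.68) at E10, and *Tns1* (tensin-1) -1.92 (-3.16 to -0.83) and *Parvb* (beta-parvin) -1.37 (-2.47 to -0.37) at E11.

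**Figure D4:**
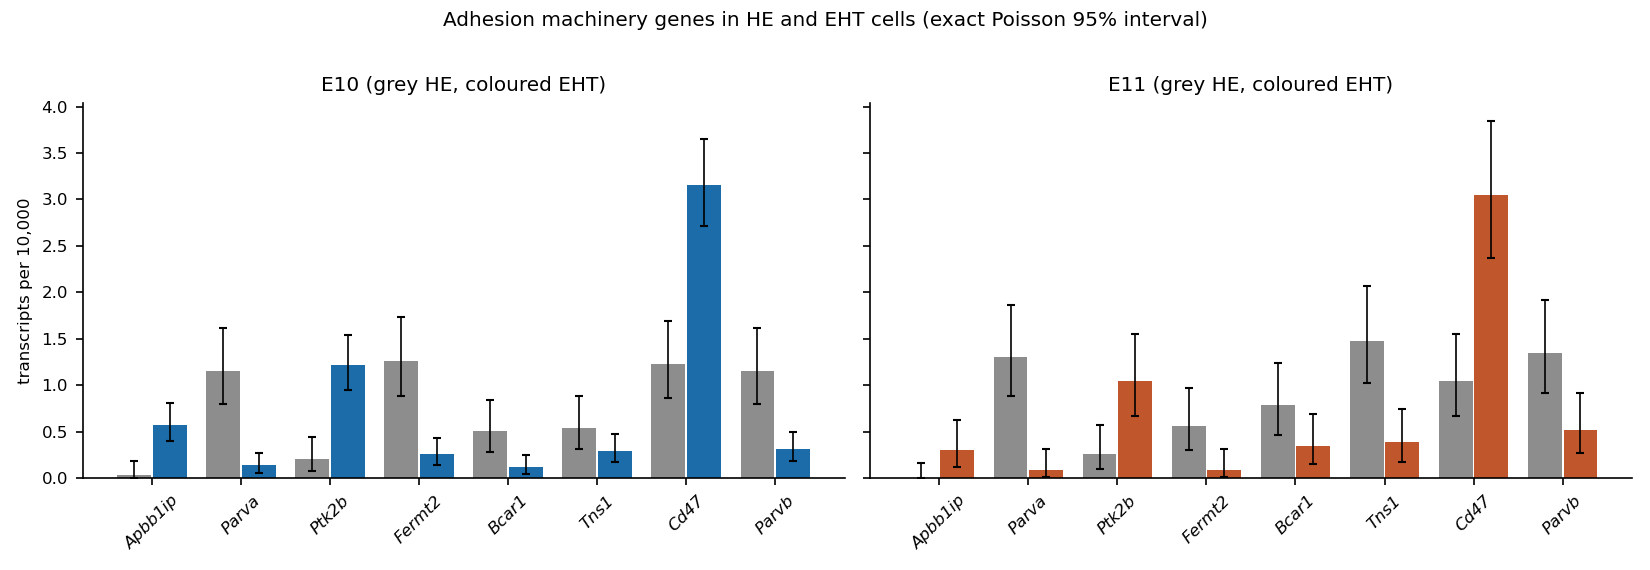
Transcripts per 10,000 (vertical axis, linear and from 0) of the 8 machinery genes with the largest ratios at E10 or E11 (horizontal axis), in HE cells (grey) and EHT cells (blue at E10, orange at E11), with exact Poisson 95% intervals. *Ptk2b*, *Apbb1ip* and *Cd47* are taller in EHT cells and the other 5 in HE cells at both stages.

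Of 26 genes that encode ligands, 17 were measured at E10, with 0 at least 2-fold higher and 12 lower in EHT than HE (10.51% and 9.22% of all genes) and a median log2 ratio of -1.52. At E11, 15 were measured, with 1 higher, 8 lower (8.65% and 13.93% of all genes) and a median of -1.12. The median of 12 endothelial markers over the same step was -1.65 and -1.59. Lower were the basement membrane genes *Nid1* (-2.57 at E10, -1.98 at E11), *Col4a2* (-2.12 and -1.48), *Lamb1* (-2.19 at E10) and *Lama4* (-2.09 at E10), the adhesion molecules *Madcam1* (-1.70 at E10) and *Icam1* (-1.95 at E11) and *Vwf* (-1.61 at E11). *Fn1*, encoding fibronectin, was at 11.4 transcripts per cell in E10 HE and 5.90 in EHT. The higher gene was *Spp1* (osteopontin), at 3.65, but 130 of its 138 transcripts in E11 EHT cells lay in the 2 cells with macrophage markers, and without them the ratio was -0.40 (-1.91 to 1.05).

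Across the 13 population profiles, the genes closest in pattern to each subunit were found by Pearson r of log2 levels (pseudocount 0.05), as a description over populations that share libraries and gates. *Itgb1* lay closest to *App* (0.990), *Plvap* (0.983) and *Tax1bp3* (0.983), *Itga9* to *Mfge8* (0.9705), *Sparc* (0.965) and *Fyn* (0.958), and *Itgav* to *Rcn3* (0.862). *Itga4* lay closest to *Gpr56* (0.976), *Apoe* (0.940) and *Runx1* (0.936), with lower rank correlations (Spearman rho of 0.709, 0.797 and 0.588). The study purified IAHC cells by *Gpr56*, which was seen in 100% of the deposited IAHC cells of each sample. The *Gpr56* profile is therefore not independent of that selection. *Itgb3* lay closest to *Apoe* (0.930), *Tspan4* (0.929) and *Ewsr1* (0.929), *Itga2b* to *Gadd45gip1* (0.983), *Nsun2* (0.979) and *Eif4a1* (0.972), *Itgal* to *Vamp8* (0.942) and *Itgb2* to *Car2* (0.853). *Itga5* and *Itga6* had under 50 transcripts and were not searched for.

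Whole clusters let the subunits be compared over replicates, between stages on each side of the aorta and between its dorsal and ventral side. Of 109 wIAHC libraries, 57 held at least 5000 transcripts: 7 E10 dorsal (6620 to 114867, median 13992), 21 E10 ventral (5958 to 110325, median 14461), 12 E11 dorsal (5079 to 25823, median 8208) and 17 E11 ventral (7603 to 54673, median 12780). A cluster is a mixture, so a lower level can mean fewer cells of a type or less RNA per cell, which cannot be told apart. Whether clusters came from separate embryos is not given, so p-values measure the spread between clusters. The libraries of E11 held more erythroid marker transcripts (medians of 18.8 dorsal and 30.2 ventral per 10,000, against 3.02 and 1.521 at E10) and more mesenchymal ones (3.69 and 2.35 against 0.174 and 0.338), and their part in the subunit levels was not tested beyond the fit without haemoglobin-rich clusters given here.

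*Itgb1* had a median of 3.25 transcripts per 10,000 in E10 dorsal (0 to 6.04), 2.51 in E10 ventral (0 to 5.38), 2.82 in E11 dorsal (0 to 7.25) and 2.46 in E11 ventral wIAHCs (0 to 4.89), and the 4 groups overlapped. *Itga4* had 1.117 (0 to 1.51), 1.02 (0 to 4.56), 2.44 (0 to 5.44) and 2.41 (0 to 6.52), so that the E11 medians were above those of E10 on both sides while the ranges overlapped. *Itgb3* had 1.49 (0 to 4.53), 1.51 (0 to 3.23), 0 (0 to 2.87) and 0.708 (0 to 2.95), and it was seen in 6 of 7, 17 of 21, 5 of 12 and 9 of 17 libraries. *Itga2b* had 1.306 (0 to 1.86), 0.418 (0 to 3.04), 0 (0 to 2.15) and 0 (0 to 1.56), and it was seen in 6 of 7, 13 of 21, 2 of 12 and 7 of 17 libraries. The beta3 and alpha IIb chains were therefore seen in a smaller share of the E11 than of the E10 clusters on either side, and the E11 libraries also had lower median totals.

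**Figure D5:**
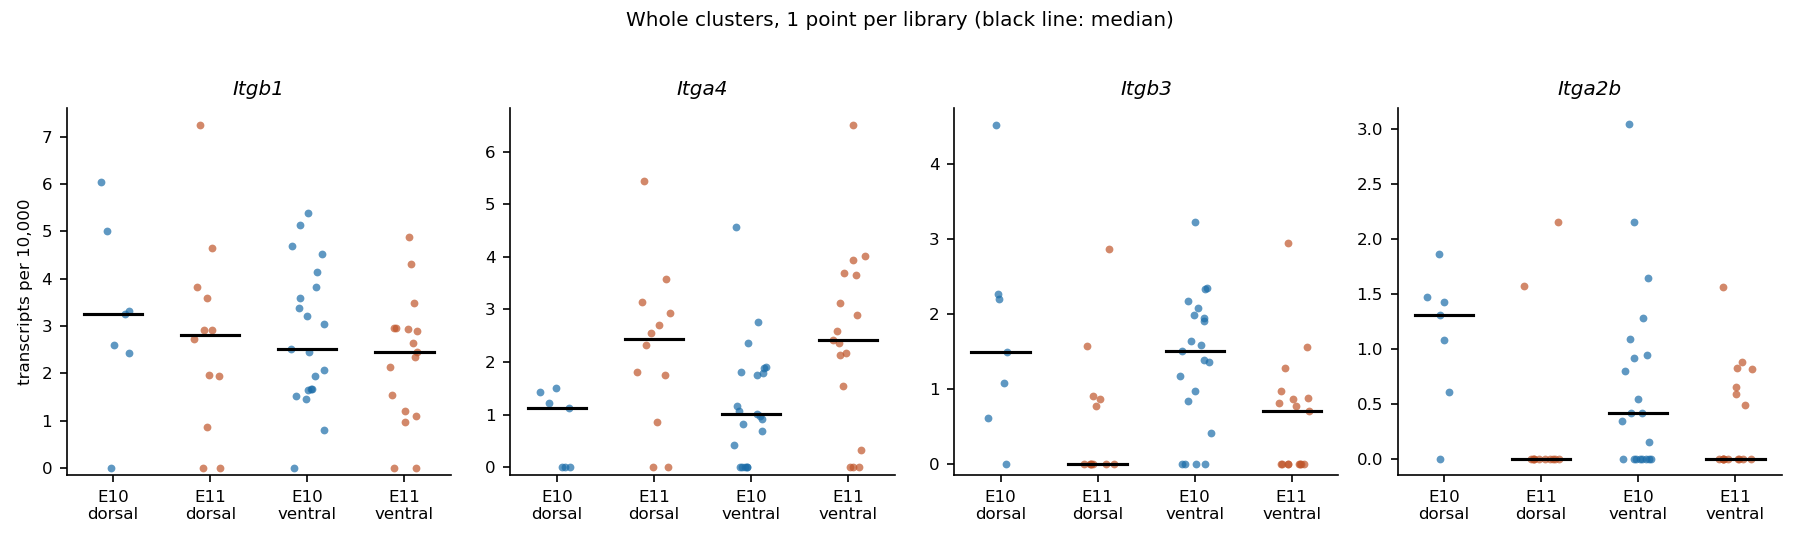
Transcripts per 10,000 (vertical axis, linear) of *Itgb1*, *Itga4*, *Itgb3* and *Itga2b* in the 57 wIAHC libraries by stage and side (horizontal axis); 1 point per library, black lines are medians, E10 blue and E11 orange. The E11 medians of *Itga4* (2.44 and 2.41) lie above those of E10 (1.117 and 1.02), and those of *Itgb3* and *Itga2b* lie below.

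These 4 subunits had at least 50 transcripts over the libraries and were tested with edgeR among 4864 genes, a threshold chosen after the data were seen because the planned filter kept 260 genes and 0 of the subunits. In ventral wIAHCs 4.77% of genes differed between E11 and E10 at an adjusted p under 0.05. Of the 4 subunits, edgeR called 0, with 3 at an unadjusted p under 0.05, and DESeq2 called 1. *Itga4* fitted at a log2 change of 0.86 ± 0.32 (SE) from E10 to E11 (adjusted p = 0.105), *Itgb3* fitted at -1.11 ± 0.38 (adjusted p = 0.0725), *Itga2b* at -0.93 ± 0.47 (adjusted p = 0.298) and *Itgb1* at -0.27 ± 0.29 (adjusted p = 0.696). The call for *Itga4* depended on the setting: DESeq2 gave 1.03 with an adjusted p of 0.0341, edgeR without the haemoglobin-rich clusters 1.01 with 0.0269, and the other alternatives adjusted p from 0.0503 to 0.207. In dorsal wIAHCs 1.67% of genes differed, and of the 4 subunits edgeR called 0, with 3 at an unadjusted p under 0.05, and DESeq2 called 0 of the 3 to which it gave an adjusted p. The edgeR fits had *Itga4* at 1.118 ± 0.56 (adjusted p = 0.358), *Itgb3* at -1.43 ± 0.60 (adjusted p = 0.246), *Itga2b* at -2.02 ± 0.70 (adjusted p = 0.128) and *Itgb1* at -0.42 ± 0.45 (adjusted p = 0.7504). The median log2 change over all genes was -0.14 ventrally and -0.29 dorsally. In edgeR the direction was the same on both sides for each subunit (in DESeq2 *Itgb1* turned to 0.0572 dorsally). A difference of the sides in the stage effect was called for 0.144% of genes (7) and 0 of the 4 subunits (0 also at an unadjusted p under 0.05 and by DESeq2), with *Itga2b* at 1.08 ± 0.92 (adjusted p = 0.915).

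Between ventral and dorsal wIAHCs of 1 stage, edgeR called 0 genes (0%) at E10, with 234 at an unadjusted p under 0.05 and 0 by DESeq2, and 0 genes (0%) at E11, with 496 at an unadjusted p under 0.05 and 1 by DESeq2. The 4 subunits had log2 differences from -0.74 (*Itga2b*) to 0.68 (*Itga4*) at E10 and from 0.18 (*Itgb1*) to 0.42 (*Itga4*) at E11, beside medians over all genes of 0.12 and 0.29, with 0 of them at an unadjusted p under 0.05. With the collection set, which ventral and dorsal E11 wIAHCs share, as a term, edgeR called 10 genes at E11. The subunits were then at 0.81 ± 0.42 (*Itga4*, edgeR adjusted p = 0.494), 0.70 (*Itga2b*), 0.40 (*Itgb1*) and 0.26 (*Itgb3*), and 0 of the 4 were called. In the fit without that term, the E11 differences of all 4 turned negative in DESeq2, and those of *Itgb1* turned negative at E10 as well. The other 6 subunits had under 50 transcripts in the 57 libraries and were tested only with no filter on low counts. Among them *Itga5* had 15 transcripts in E10 ventral and 0 in E11 ventral wIAHCs (edgeR adjusted p = 0.0167 with no filter), and *Itgal* 3 in all. Of 22 machinery genes that could be tested, 1 was called in ventral wIAHCs between the stages, a share near the 4.77% of all genes. This was *Rap1b*, encoding a small GTPase that activates integrins, which fell by 0.94 ± 0.29 on the log2 scale from E10 to E11 (edgeR adjusted p = 0.0398; 0.0861 without the haemoglobin-rich clusters and 0.0564 with no filter). Of 8 ligand genes tested, edgeR called 0.

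Cells and clusters could be set side by side per 10,000 transcripts, though prepared separately. The E11 cells pool both IAHC samples, and those of E10 are c-kit+CD31+ alone. *Itgb3* was at 1.83 in E10 and 1.11 in E11 IAHC cells, and at 1.691 and 0.721 in wIAHCs, and *Itga2b* at 1.05 and 0.531 in cells and 0.828 and 0.328 in wIAHCs. *Itgb1* was at 3.52 and 2.86 in cells and 3.10 and 2.56 in wIAHCs. *Itga4* differed more between stages in wIAHCs (1.36 and 2.7105) than in cells (1.55 and 1.697). Between the c-kit+CD31+ cells alone, at 3000 transcripts per cell, the log2 ratio of E11 to E10 was within counting error for *Itgb3*, at -0.34 (-0.90 to 0.24), and for *Itga2b*, at -0.81 (-1.61 to 0.01). Within E11, 4 ventral wIAHCs of the first collection set held 4.07 per 10,000 of *Itga4* and 13 of the second 2.19, and in dorsal wIAHCs the sets held 2.998 and 1.41. All E10 wIAHCs were of 1 set, so stage and collection set cannot be told apart.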

How the data were processed

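Single cells and wIAHCs were sequenced with CEL-Seq. Per the submitters' processing notes, reads were aligned to mm10 with BWA 0.6.2-r126, and the annotation and use of strand are not given in the sources used here. For single cells, the authors deposited estimated counts of transcripts from UMIs, down-sampled to 3000 (E10) or 5000 (E11) per cell with 0.1 added, which was taken off again. For wIAHCs, the authors deposited UMI-corrected estimated counts without scaling for depth. They were rounded to whole transcripts (largest change 0.495), and 90 spike-in rows (0 to 85.2% of a library, median 0.112%) were left out. Columns were mapped by name to 14 labelled samples, and 0 were left over. No doublet caller was run on the sorted cells, no cell was removed, and no columns held identical values.

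The subunits and gene lists were chosen with earlier results of these data known. All 10 subunits are named throughout. Of other subunits, those with at least 0.2 transcripts per cell in a population are named, and of the 34 machinery and 26 ligand genes the 5 with the largest EHT to HE ratio at each stage and those called in wIAHCs. *Fn1* was named after its values were seen. Single-cell populations have no replicate samples and no test. Ratios need 20 transcripts in the pair for the counts of 2-fold differences. A ratio with 0 on a side is given only as a bound. Patterns were compared over 13 profiles at 3000 transcripts per cell, among genes of at least 200 transcripts.

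wIAHC libraries of at least 5000 transcripts (57, with 52 not used) were tested with the quasi-likelihood test of edgeR 4.0.16 in R 4.3.3 (TMM, limma 3.58.1, 1 fit of the 4 groups of stage and side, 5 contrasts, Benjamini-Hochberg adjusted p under 0.05). The planned filterByExpr kept 260 genes and 0 subunits, so genes of at least 50 transcripts over these libraries were tested in a fit added after the data were seen. In simulated data for the ventral stage comparison with 4634 genes tested, that fit recovered 31.6% of 95 genes changed 2-fold and 95.7% of 93 changed 4-fold, with 9 false among 128 calls. Alternatives were DESeq2 1.42.0, no TMM, no filter, minima of 2000 and 10000 transcripts, leaving out libraries above 10% haemoglobin, and collection set as a term. In single cells they were thinning, the rebuilt IAHC filter, single sets left out or weighted equally, and cells with macrophage markers left out. The split of E11 IAHC cells by sample was added after the data were seen. Python 3.11.15 with numpy 2.4.6, pandas 2.3.3, scipy 1.17.1 and matplotlib 3.10.9 was used otherwise.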

Additional observations from a re-analysis of the deposited data

Results flagged for a closer look

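In the 7 E10 dorsal wIAHCs, 1 library stood apart from the others for *Itga6*, at 0.715 transcripts per 10,000, and 1 for *Itgal*, at 0.0871. Each of these values rests on 1 transcript in its library. The rule that marked them, a gap to the nearest library that is large for the range of the group, was applied to 9 groups of values. Its chance rate of about 1 in 20 need not hold where most libraries have 0 transcripts, as here. *Itga6* was seen in 2 and *Itgal* in 1 of the 7 libraries, so 1 transcript was enough for a mark and nothing is concluded from it.

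The 52 wIAHC libraries of under 5000 transcripts were used in no comparison. Together they held 99810 transcripts, among them 20 of *Itga4*, 17 of *Itgb1*, 14 of *Itgb3*, 12 of *Itga2b*, 6 of *Itga9* and 4 of *Itga6*, each above the 3 counts that a total of 0 allows.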

How the results depend on the processing

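Of the counts of genes called in wIAHCs, 37 stayed within 1.5 times the main count and 25 did not. With the planned filter the counts were 81 (47 higher, 34 lower) for the ventral stage comparison, 24 (19, 5) for the dorsal one and 0 for both side comparisons and the interaction, with 20, 23 and 26 genes at an unadjusted p under 0.05 and 0 by DESeq2. With no filter they were 310, 107, 8, 12 and 21, with libraries of at least 10000 transcripts 132 and 3 for the stage comparisons, without TMM 40 dorsally (16 higher, 24 lower, and 30 and 56 ventrally), and among genes of at least 50 transcripts 232, 81 and 7 (interaction).

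In the fit of genes of at least 50 transcripts the splits were 130 higher and 102 lower ventrally and 22 and 59 dorsally. DESeq2 gave 142 and 66, and 49 and 12, and no TMM 153 and 135, and 40 and 40. Libraries of at least 2000 transcripts gave 394 genes ventrally, 9 and 13 for the sides at E10 and E11 and 23 for the interaction, and at least 10000 gave 19 dorsally and 2 for the interaction. No TMM gave 12 for the sides at E10 and 1 for the interaction, the fit without haemoglobin-rich libraries 16 and 8 for the sides and 21 for the interaction, DESeq2 1 for the sides at E11 and 0 for the interaction, and the collection set as a term 10 for the sides at E11. The cause of these shifts was not tested.

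Of single genes in wIAHCs, *Itga4* passed the threshold in the ventral stage comparison under 2 alternatives and *Rap1b* lost it under 2, as given with them. Of the stage differences, dorsal *Itga4* (1.118 as reported) was at 1.72 in DESeq2, dorsal *Itgb3* (-1.43) at -0.77 with at least 10000 transcripts and at -0.98 in DESeq2, dorsal *Itga2b* (-2.02) at -1.40 in DESeq2 and ventral *Itga2b* (-0.93) at -0.44 with at least 2000 transcripts. Differences that changed sign were not past the threshold: with DESeq2 *Itga2b* -0.27, *Itga4* -0.0068, *Itgb1* -0.24 and *Itgb3* -0.13 for the sides at E11, *Itgb1* -0.0169 for the sides at E10, 0.0572 for the dorsal stage comparison and -0.23 for the interaction, and *Itgb3* -0.0451 for the interaction. Without TMM, *Itgb1* turned to -0.0547 and -0.14 for the sides and -0.0825 for the interaction, and *Itgb3* to -0.0110 for the sides at E11. With at least 10000 transcripts *Itgb3* turned to 0.0498 and -0.15 for the sides and -0.20 for the interaction, with at least 2000 *Itgb1* to -0.0126 for the interaction, and without haemoglobin-rich libraries *Itgb1* to -0.0060 for the sides at E10. With no filter *Itga5*, with 15 transcripts in E10 and 0 in E11 ventral wIAHCs, was called (adjusted p = 0.0167), the construction of that setting being that low genes enter.

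In single cells, 622 ratios of subunits kept within 1 counting interval of their value, 7 moved and 1 changed sign, that of *Itgb2* between E11 c-kit+CD31+ IAHC and EHT cells, to 0.0714 without the cells with macrophage markers. The E10 ratio of *Itgb1* between EHT and HE ran from -1.27 to -0.82 when 1 set was left out. The nearest genes changed in 14 of 16 comparisons of alternatives, so those named hold for the stated measure. Libraries were not left out in turn, since the smallest wIAHC group held 7. The labels give no replicate numbers that pair samples, so no analysis was paired by label. Sets of columns were used instead where groups share them, as values by set for pre-HSCs and as a term for the sides at E11. Depth limits what can be said of the 6 subunits under 50 transcripts in wIAHCs.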
